A study of Mus musculus with 2 samples.

Results

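The genes of oxidative phosphorylation were followed through the cell types of mouse bone marrow and through the maturation of its red cell precursors. The members were taken by symbol from the gene list of the deposited matrices: every symbol starting with mt-, Nduf, Uqcr, Atp5, Cox4, Cox5, Cox6, Cox7 or Cox8, and the 4 genes Sdha, Sdhb, Sdhc and Sdhd. This gave 107 of 32285 genes, of which 13 (mt-) are encoded by the mitochondrial genome and 94 by nuclear chromosomes. Femoral marrow of 2 mice aged 2 months was profiled by droplet single-cell RNA sequencing, with 1 library per mouse. The WT animal was, by the study's methods, a littermate control that carried Ddx41 fl/fl without VavCre and had wild-type cGas. The DKO animal was VavCre:Ddx41 fl/fl, cGAS-/-: Ddx41, a DEAD-box helicase, was deleted by a Cre that is active throughout the blood lineages and is also known from oocytes and endothelial cells, and the cytosolic DNA sensor cGAS was absent from the germline. The floxed Ddx41 alleles are therefore shared by both animals, the effects of the 2 deleted genes cannot be told apart, and with 1 mouse of each genotype neither can a genotype difference be told apart from a difference between mice or libraries. No p-value was computed between them, and every interval given is a 95% interval for counting error.

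Oxidative phosphorylation takes place in the inner mitochondrial membrane. Complex I (NADH dehydrogenase) and complex II (succinate dehydrogenase) feed electrons to ubiquinone, complex III passes them to cytochrome c, complex IV (cytochrome c oxidase) reduces oxygen, and complex V (ATP synthase) makes ATP from the proton gradient. Complexes I, III, IV and V are assembled from subunits of both genomes and complex II from nuclear subunits alone, so that cytosolic and mitochondrial gene expression must supply parts of the same enzymes. In the erythroid lineage mitochondria also make heme and are removed before the red cell is mature, after the nucleus is expelled.

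Cell calling and quality filters left 18649 WT and 13703 DKO cells, with medians of 4879 and 6904 unique molecular identifiers (UMIs, a count of RNA molecules) per cell and 118706816 and 114521042 UMIs in all. Ddx41 was at 20.2 CPM (counts per 1000000 UMIs) in WT and 7.999 in DKO cells, and Cgas at 13.6 and 7.22 CPM, both lower in the library labelled DKO and neither at 0. The cells fell into 33 clusters made without any member gene, Ddx41 or Cgas, and 12 classes named from marker genes held at least 50 cells in each library. Hemoglobin took 28.5% of WT and 36.4% of DKO UMIs, so levels across classes are given as shares or CPM of the UMIs without the hemoglobin genes ("non-hemoglobin UMIs"), unless stated otherwise. A UMI tags the 3′ end of a transcript and was not divided by gene length, and levels are compared here between cells rather than between genes. The libraries shared 75 cell barcodes, and leaving these cells out moved none of the 7 summary values tested beyond its own limits, which are described at the end. Late erythroid-like cells of both libraries lay in the same clusters, but in different proportions. The largest shares were cluster 2 (20.7%) and cluster 23 (19.9%) in WT and cluster 23 (21.8%) and cluster 17 (21.2%) in DKO. Isg15, an interferon-induced ubiquitin-like protein, led clusters 2, 3 and 5. These held 20.7, 14.4 and 6.25% of the class in WT and 12.9, 4.73 and 6.30% in DKO.

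Nuclear and mitochondrial members followed different orders across the marrow. The summed nuclear members were highest in cKit+ progenitor-like cells, at 2.88% of non-hemoglobin UMIs in WT and 2.60% in DKO, followed by early erythroid-like cells (2.72% and 2.50%) and monocyte-like cells (2.38% and 2.08%). They were lowest in stromal-like cells (0.9997% and 1.002%), neutrophil-like cells (1.13% and 0.963%) and late erythroid-like cells (1.25% and 1.18%). The summed mt- members were lowest in neutrophil-like cells, at 0.663% and 0.644%, and highest in stromal-like cells (4.51% and 4.75%) and macrophage-like cells (4.27% and 4.20%). B cell-like, dendritic-like and T or NK cell-like cells lay between, at 2.59% to 2.84% in WT and 2.80% to 2.95% in DKO.

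The number of nuclear UMIs per mt- UMI put these orders into a single value. It was 2.17 in WT and 1.71 in DKO cKit+ progenitor-like cells, 1.71 and 1.497 in neutrophil-like cells, and 1.55 and 1.46 in early erythroid-like cells. It was 0.722 and 0.708 in late erythroid-like, 0.645 and 0.572 in B cell-like and 0.603 and 0.464 in T or NK cell-like cells. The lowest values were those of macrophage-like cells (0.327 and 0.318) and stromal-like cells (0.222 and 0.211), classes whose median cell held only 1063 and 907, and 1364 and 1248 UMIs. The macrophage-like class held a pair of unlike clusters: cluster 20, with 65.6% of its WT and 73.0% of its DKO cells, had 0.639 and 0.513 nuclear per mt- UMI at median depths of 809 and 743 UMIs, and the deeper cluster 27 (2267 and 3604 UMIs) had 0.194 and 0.197. RNA outside cells, measurable in WT alone, could make up at most 41.4% of the mt- UMIs of late erythroid-like, 27.5% of neutrophil-like and 4.46% of cKit+ progenitor-like cells. With that upper limit taken out the quotient was 1.04, 2.25 and 2.26 in these classes, so that neutrophil-like and cKit+ progenitor-like cells were then close to each other. The order of the 12 classes was close to the same in both libraries, with a rank correlation of 0.979 for the mt- share and 0.965 for the nuclear share, given as a description. Within a library the 2 shares did not rise together over the 12 classes (rank correlation -0.30 in WT and -0.20 in DKO).

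**Figure D1:**
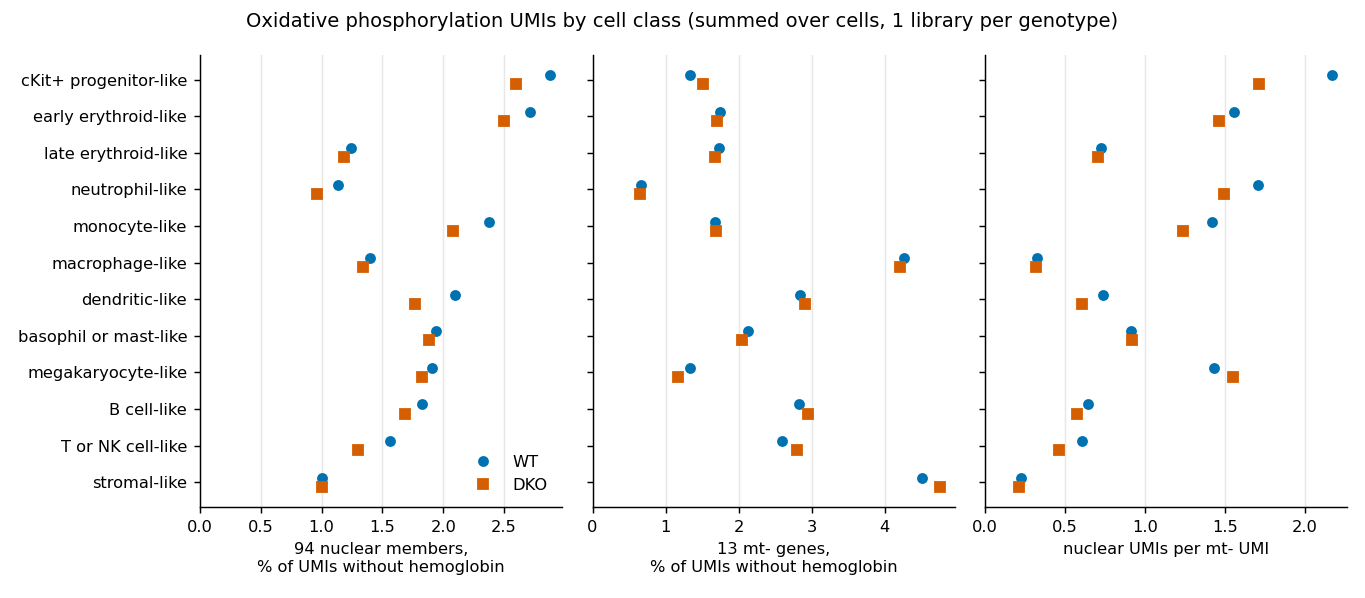
Members by marrow class in both libraries: left, summed nuclear members and middle, summed mt- members, each as a percent of non-hemoglobin UMIs; right, nuclear UMIs per mt- UMI. Each point is the summed value of 1 class in 1 library. cKit+ progenitor-like cells stand highest in the left and right panels, neutrophil-like cells lowest and stromal-like cells highest in the middle panel.

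The 13 mt- genes are transcribed from both strands of the circular genome as long precursors that are cut into single RNAs, 12 of them from the same strand and mt-Nd6 from the other. mt-Co3, a core subunit of complex IV, gave the largest share of mt- UMIs in 12 of 12 WT and 10 of 12 DKO classes, between 20.1% in stromal-like and 23.7% in monocyte-like cells of WT. mt-Atp6, the ATP synthase subunit of the proton channel, followed at 15.7% to 19.5% in WT, mt-Co2 at 14.1% to 17.6%, mt-Co1 at 10.2% to 18.9% and mt-Cytb, the mitochondrial subunit of complex III, at 9.60% to 15.3%. The complex I genes gave less: mt-Nd1 5.30% to 8.06%, mt-Nd4 5.05% to 7.57%, mt-Nd2 2.32% to 4.65%, mt-Nd3 1.09% to 1.77% and mt-Nd5 0.437% to 0.934%. mt-Atp8, mt-Nd4l and mt-Nd6 were each under 0.5% in every WT class.

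mt-Atp8 and mt-Nd4l each end inside the next gene of the same strand and share an RNA with it. (mt-Atp6 and mt-Co3 also share a single base, and mt-Nd5 ends inside mt-Nd6, which lies on the other strand.) In the GRCm38 annotation mt-Atp8 occupies chrM:7766-7969 and mt-Atp6 chrM:7927-8607 on the plus strand, so 43 bases belong to both. mt-Nd4l occupies chrM:9877-10173 and mt-Nd4 chrM:10167-11544, so 7 bases belong to both. The stretches are shown because a 3′ tag on these 2-gene RNAs falls in the downstream gene, which bears on how the 4 values can be read. Capitals mark the bases that belong to both genes, with 15 bases of each gene alone on either side:
mt-Atp8/mt-Atp6, chrM:7912-7984: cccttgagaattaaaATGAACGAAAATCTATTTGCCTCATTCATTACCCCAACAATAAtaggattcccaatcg
mt-Nd4l/mt-Nd4, chrM:10152-10188: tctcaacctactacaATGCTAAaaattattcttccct
mt-Atp8 took 0.068% to 0.179% of WT mt- UMIs by class beside 15.7% to 19.5% for mt-Atp6, and mt-Nd4l 0.143% to 0.434% beside 5.05% to 7.57% for mt-Nd4. These low values are those of tags assigned to the upstream gene and are no measure of how much of its RNA was present.

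Some mt- genes took another share of the mt- total in the DKO library, in the same direction in every class. mt-Co1 was higher in DKO in 12 of 12 classes, by 0.11 to 0.34 on the log2 scale. It was 17.0% of mt- UMIs in WT and 21.6% in DKO late erythroid-like cells, 12.8% and 15.6% in early erythroid-like cells, and 10.2% and 11.8% in stromal-like cells. mt-Cytb was lower in 12 of 12 classes, at 9.92% and 8.16% in late and 12.5% and 9.95% in early erythroid-like cells, with log2 differences of -0.34 to -0.00041. mt-Nd4 was lower in 12 of 12 classes as well (log2 -0.25 to -0.01), mt-Nd1 in 10 and mt-Nd4l in 11, while mt-Co2 and mt-Nd3 were higher in 11 classes. Since the 13 shares sum to 100%, a higher share of mt-Co1 lowers the others. The 12 classes came from the same pair of libraries and are not 12 independent comparisons. The mitochondrial haplotype of the mice is not given in the sources used here. The study describes the control as a littermate, and the cause of the shifts in mt- shares was not tested.

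Nuclear members are split below by the complex they build. Over both libraries complex V (17 genes) gave 862190 UMIs, complex IV (20 genes) 835559, the supernumerary subunits of complex I (30 genes) 766280, complex III (8 genes) 257305, the catalytic core of complex I (7 genes) 93802, complex II (4 genes) 48567 and the complex I assembly factors (8 genes) 28768. All of them but 2 complex IV genes had a UMI in the kept cells of at least 1 library. Ndufb1-ps, counted here with the supernumerary subunits of complex I, is annotated as a non-coding RNA. Ndufb9 and Ndufb7 had most UMIs of the complex I supernumerary subunits, Ndufv2 and Ndufs7 of its core, Uqcrh and Uqcrb of complex III, Cox4i1 and Cox8a of complex IV, and Atp5h and Atp5l of complex V. Of complex II, which also works in the tricarboxylic acid cycle, the flavoprotein Sdha had its highest level in basophil or mast-like cells (112 CPM in WT and 126 in DKO), Sdhb in monocyte-like cells (171 and 137), and the membrane anchors Sdhc in macrophage-like cells (78.6 and 82.3) and Sdhd in cKit+ progenitor-like cells (156 and 134). In DKO late erythroid-like cells held the lowest level of all 4, at 14.3 to 18.7 CPM. The assembly factor Ndufaf8 was at 124 and 98.999 CPM in cKit+ progenitor-like and at 13.1 and 9.86 in late erythroid-like cells. Cox5a, a structural subunit of complex IV, ranged from 1149 CPM in WT and 1152 in DKO megakaryocyte-like cells to 121 and 66.3 in late erythroid-like cells.

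Complex IV has subunits that exist as alternative genes, and 2 of the alternatives had most of their UMIs in a single class or lineage. Cox6a2, known as the isoform of heart and skeletal muscle, was a gene of dendritic-like cells: 2770 of 3180 WT and 1069 of 1238 DKO Cox6a2 UMIs (87.1% and 86.3%) came from this class, where its level was 1026 and 781 CPM. The class was named from a longer list of dendritic cell markers, 8 of which were raised. Of these, Siglech, Cd300c, Klk1 and Ccr9, markers of plasmacytoid dendritic cells, were among its most raised genes. A cluster led by Cd209a, with Clec10a among its top genes, stayed unnamed and was not compared. There Cox6a2 made up 82.6% and 78.7% of the UMIs of the Cox6a pair, against 0.149% and 0.0363% in early erythroid-like cells. The next highest class, basophil or mast-like, was at 27.1 and 17.1 CPM, and the RNA outside WT cells, on the same scale, at 12.6 CPM.

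Cox6b2, known as the testis isoform, was highest in early erythroid-like cells, at 141 CPM in WT and 148 in DKO (1482 and 2099 UMIs). It was 3.25 and 2.38 CPM in T or NK cell-like cells, on 8 and 4 UMIs, 11.8 and 12.2 in neutrophil-like cells, and 36.8 CPM in the RNA outside WT cells, on the same scale. Outside the erythroid classes basophil or mast-like cells were highest, at 60.3 and 58.8 CPM (267 and 151 UMIs, 15.4% of Cox6b UMIs in both libraries), followed by cKit+ progenitor-like cells at 32.1 and 46.3 CPM. Stromal-like cells had shares of 10.7% and 12.2%, on 12 and 10 UMIs. It made up 21.0% (20.1 to 22.0) of Cox6b UMIs in WT and 23.7% (22.8 to 24.6) in DKO early erythroid-like cells. In late erythroid-like cells it made up 27.4% (25.1 to 29.9) and 42.7% (40.3 to 45.2), the levels being 66.9 and 114 CPM beside 177 and 153 CPM of Cox6b1. The other alternatives were close to absent: Cox4i2 gave 74 and 59 UMIs in all, Cox7a1 67 and 58, Ndufa4l2 4 and 6, Cox8c 0 and 1, and Cox7b2 and Cox8b none, although Cox8b had 3 UMIs in WT barcodes outside cells. A count of 0 allows up to 0.0253 CPM over all WT and 0.0262 over all DKO cells.

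The upstream sequences of Cox6b1 and Cox6b2 are shown since the share of Cox6b2 in the pair differed between classes, from 1.12% and 1.08% in T or NK cell-like to 27.4% and 42.7% in late erythroid-like cells. Both genes lie on chromosome 7 on the minus strand, and the 250 bases before the start site, from RefSeq on GRCm38.p6, read from 5′ to 3′ are as follows, with matches to the 5 motifs named next in capitals:
Cox6b1, chr7:30626115-30626364: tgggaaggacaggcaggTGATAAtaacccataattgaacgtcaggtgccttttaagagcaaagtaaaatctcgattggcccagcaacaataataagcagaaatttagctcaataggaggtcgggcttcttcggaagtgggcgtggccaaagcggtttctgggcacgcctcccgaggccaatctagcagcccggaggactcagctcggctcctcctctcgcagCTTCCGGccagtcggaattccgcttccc
Cox6b2, chr7:4753095-4753344: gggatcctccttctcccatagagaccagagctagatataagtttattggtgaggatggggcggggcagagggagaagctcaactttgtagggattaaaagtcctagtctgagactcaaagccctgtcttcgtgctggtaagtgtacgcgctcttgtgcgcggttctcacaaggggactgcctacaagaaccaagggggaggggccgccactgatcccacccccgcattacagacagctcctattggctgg
The Cox6b1 run holds an ETS match, near its end, and a GATA match, near its beginning. The Cox6b2 run holds none of the motifs searched. Over the 80 promoters of 300 bases (250 before to 50 after the start) found for 75 of the 94 nuclear members, searched on both strands, the ETS core CCGGAAG was in 23.8%, against 8.86% of all 32851 promoters. The NRF1 core GCATGCGC was in 15% against 2.71%, and the YY1 motif AAGATGGCG in 10% against 1.40%. The erythroid GATA motif NGATAA was in 21.3% against 25.3%, and the TATA box TATAAA in 11.3% against 13.6%. These are counts of letters: a match is not a bound site, and an absence says only that these letters are not in the window.

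The c-ring of ATP synthase is encoded by 3 genes, Atp5g1, Atp5g2 and Atp5g3, whose mature proteins are the same, and the mix of the 3 changed by class. Atp5g2 gave the largest share in 10 of 12 classes in both libraries, with the highest values in dendritic-like (57.4% in WT and 59.1% in DKO), B cell-like (53.9% and 52.9%) and T or NK cell-like cells (53.2% and 53.9%). Atp5g1 led in early erythroid-like cells (43.2% and 41.7%) and Atp5g3 in late erythroid-like cells (36.7% and 51.4%). By hemoglobin stage the leading gene changed again toward the end, as given below. Cox7a2l, a relative of Cox7a2 that takes part in joining complexes III and IV into supercomplexes, gave 63.9% and 61.5% of the UMIs of the pair in T or NK cell-like cells, 24.6% and 22.1% in early and 15.8% and 11.9% in late erythroid-like cells.

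**Figure D2:**
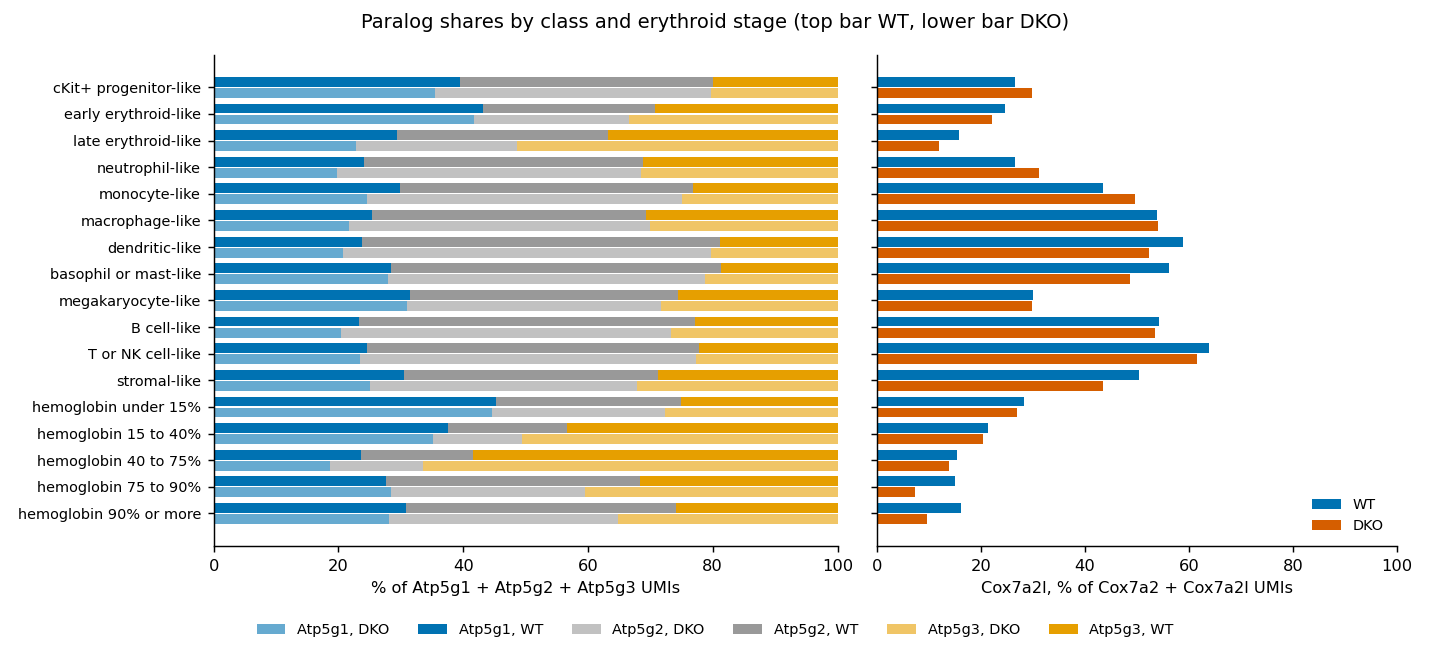
Shares of paralogous genes: Atp5g1, Atp5g2 and Atp5g3 as a percent of their summed UMIs, and Cox7a2l as a percent of Cox7a2 plus Cox7a2l, by class and by hemoglobin stage, in both libraries. Atp5g2 leads in 10 of 12 classes of each library, Atp5g1 in early and Atp5g3 in late erythroid-like cells. By stage Atp5g3 leads at 15 to 40% and at 40 to 75% hemoglobin. At 40 to 75% it reaches 58.5% in WT and 66.4% in DKO. Atp5g2 leads at 90% or more in both libraries.

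To follow the members through red cell maturation, the early and late erythroid-like cells were ordered by the share of hemoglobin among their UMIs and cut at 15, 40, 75 and 90%. Hemoglobin genes are no members, and the cuts are ranges rather than cell types: 27.9% of WT and 24.5% of DKO erythroid cells lay within 2 points of the 90% limit. The stages held 1032, 546, 1222, 3662 and 1404 WT cells and 726, 496, 1211, 1418 and 2619 DKO cells. Of the first stage, 225 WT and 111 DKO cells were of the late erythroid-like class, so it was not made up of early cells alone. A cell of the first stage held on average 180 nuclear and 125 mt- member UMIs in WT and 285 and 233 in DKO. A cell of the last stage held 4.74 and 9.08 in WT and 6.70 and 12.5 in DKO. Both means were thus lower by over 10-fold at the end, that of the nuclear set more so. The first-stage means were carried by the deeper cells: 254 of 1032 WT cells, those of at least 5000 UMIs, held 5352631 of the 6404551 UMIs. The median cell of the first stage held 1357 UMIs in WT and 1602 in DKO, and that of the last stage 5131.5 and 7920. The means thus do not describe a typical first-stage cell.

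Relative to the other RNA of the cell, the nuclear members were lower at each step. They were 3.03, 2.34, 1.61, 1.18 and 1.08% of non-hemoglobin UMIs from the first to the last stage in WT and 2.84, 2.37, 1.55, 1.18 and 1.12% in DKO. The mt- members were lowest at 40 to 75% hemoglobin: 2.10, 1.40, 1.08, 2.05 and 2.07% in WT and 2.32, 1.40, 0.918, 1.87 and 2.09% in DKO. There were 1.44 nuclear UMIs per mt- UMI in the first stage of WT and 1.22 of DKO, 1.67 and 1.70 at 15 to 40%, 1.496 and 1.68 at 40 to 75%, 0.578 and 0.631 at 75 to 90% and 0.523 and 0.535 in the last stage. The largest step came between the 40 to 75% and the 75 to 90% stage in both libraries. From the first to the last stage the log2 change of this quotient was -1.46 (-1.51 to -1.42) in WT and -1.20 (-1.22 to -1.17) in DKO.

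Depth and free RNA moved with this result. Cells of at least 5000 UMIs gave 1.65, 1.73, 1.70, 0.687 and 0.709 nuclear per mt- UMI in WT and 1.34, 1.76, 1.75, 0.648 and 0.548 in DKO, and the shallower cells gave lower values in every stage, 0.684 to 0.318 in WT and 0.496 to 0.287 in DKO from the first to the last. Without the erythroid clusters of low median UMIs (cluster 15, led by Car1, and cluster 29) the change was -0.94 in WT and -0.79 in DKO. With the cells over the limit on the mt- share kept in, it was -0.84 and -0.40. RNA outside cells, measured in WT barcodes of 1 to 100 UMIs, was 4.62% mt- and 1.26% nuclear members (of all UMIs, hemoglobin included), or 0.273 nuclear per mt- UMI. An upper limit came from the gene, among the 200 most abundant in this RNA, that was lowest in the stage by comparison. In the last WT stage this gene was Arhgap15, and at most 39.0% of the mt- UMIs could be of this origin. Taking out the upper limit of each stage left 0.682 nuclear per mt- UMI in the last and 1.51 in the first stage, a change of -1.14. The direction held in each of these settings, and its size depended on them.

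**Figure D3:**
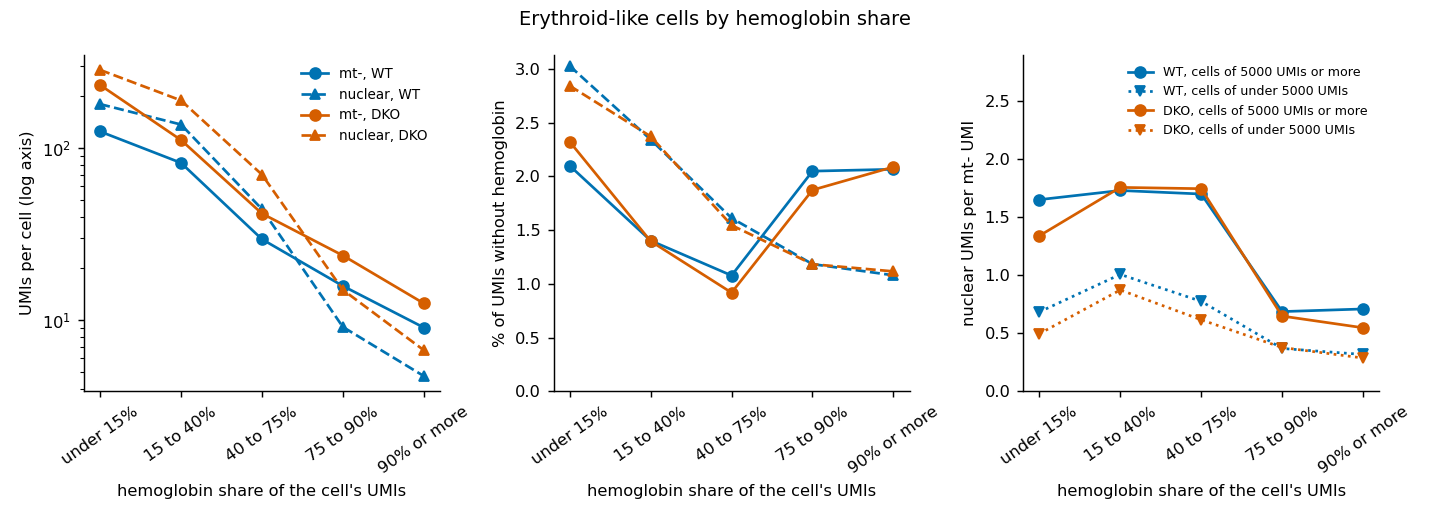
Members by hemoglobin stage of erythroid cells in both libraries: member UMIs per cell on a log axis; members as a percent of non-hemoglobin UMIs; and nuclear UMIs per mt- UMI in cells of at least 5000 and under 5000 UMIs. Nuclear per mt- UMIs stay near 1.7 in the deeper cells of the 15 to 40% and 40 to 75% stages and are 0.709 or less in the last 2 stages.

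Most nuclear members were lower in the last stage, and a few were not. With genes of at least 100 CPM taken over the first and last stage (mean of both stages and libraries), 65 of the 94 nuclear members could be compared, and 54 in WT and 52 in DKO were lower by 2-fold or more in the last stage. This is to be read against a background of 67.1% of all 1179 genes in WT and 67.9% in DKO. A member could reach the minimum through the first stage alone, where it was high, so these counts are partly set by the minimum. The nuclear members' median log2 change was -2.11 in WT and -2.35 in DKO, beside -1.89 and -2.60 over all genes. In the other direction 0 and 1 of the 65 were higher by 2-fold or more, where 16.4% and 17.9% of all genes were. By complex the medians were -3.00 and -3.67 for 2 core subunits of complex I, -2.32 and -2.74 for 25 supernumerary ones, -2.26 and -2.36 for complex III (8 genes), -1.74 and -1.38 for complex IV (13 genes), and -1.90 and -2.11 for complex V (17 genes). No gene of complex II or of the assembly factors reached the minimum. All 10 mt- genes that did stayed within 2-fold, with medians of 0.01 in WT and -0.25 in DKO.

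Atp5l, subunit g of the ATP synthase membrane part, was the member with the highest ratio in both libraries. It was at 661, 633, 733, 1415 and 1143 CPM through the WT stages and at 651, 657, 614, 1443 and 1563 CPM through those of DKO. Its change from the first to the last stage was 0.79 (0.67 to 0.91) in WT and 1.26 (1.19 to 1.33) in DKO, on 705 and 2458 UMIs in the last stage. Uqcrh, the hinge protein of complex III, went from 679 to 744 CPM in WT and from 666 to 866 in DKO (0.14 and 0.38). Cox7b of complex IV went from 371 to 345 and from 364 to 550 CPM (-0.10 and 0.60), Cox6c from 719 to 534 and from 696 to 774 (-0.43 and 0.16), and Cox6a1 from 510 to 355 and from 499.9 to 463 (-0.52 and -0.11). Atp5h, subunit d of the stalk, went from 869 to 611 and from 807 to 713 CPM (-0.50 and -0.18). Ndufa1 and Ndufa3, small membrane subunits of complex I, were at 0.04 and -0.01 in WT and at 0.64 and 0.16 in DKO; both are named here because of these values.

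Other subunits of the same enzymes had the lowest ratios. Ndufs7, an iron-sulfur subunit of the complex I core, went from 262 to 22.7 CPM in WT and from 223 to 12.1 in DKO (-3.43 and -4.13). Atp5g1 went from 890 to 81.1 and from 775 to 22.9 CPM (-3.43 and -5.04). Atp5d of the ATP synthase stalk (-3.78 and -3.66) and Ndufab1, the mitochondrial acyl carrier protein and complex I subunit (-3.83 and -4.21), were also among the lowest and are named because of it. The last-stage WT levels of Ndufs7, Ndufab1 and Atp5d rested on 14, 15 and 21 UMIs. Cox4i1 went from 1130 to 277 CPM in WT and from 1043 to 242 in DKO (-2.02 and -2.11), and Cox8a from 1066 to 524 and from 967 to 444 (-1.02 and -1.12), so that subunits of the same complex ended at different fractions of their starting level.

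**Figure D4:**
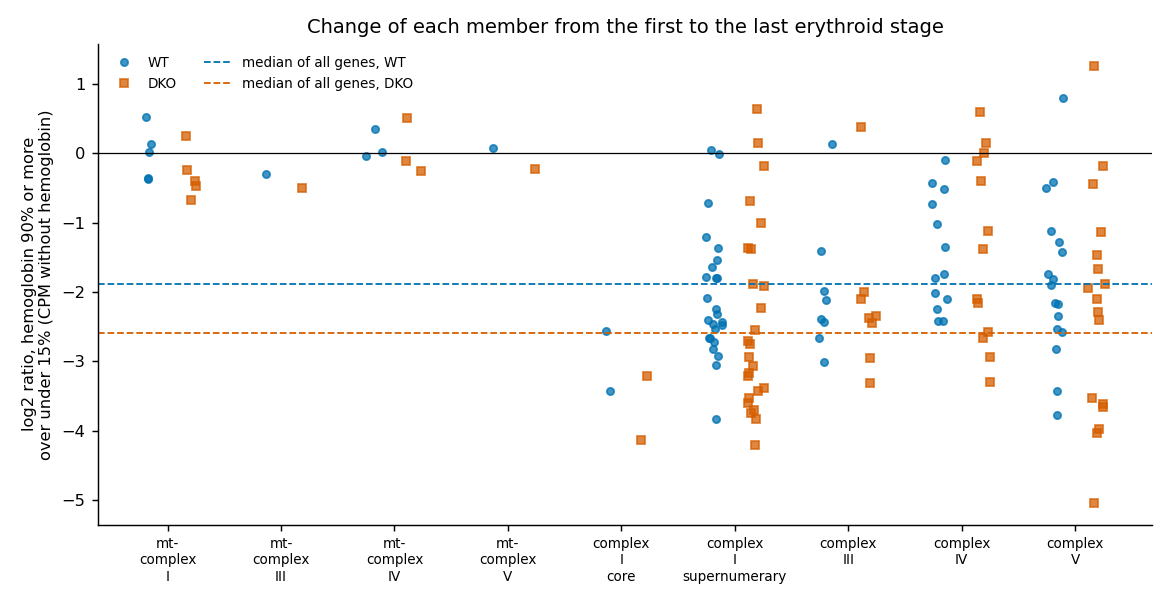
Log2 change from the first (under 15% hemoglobin) to the last stage (90% or more) of each member that reached 100 CPM, by complex and library, from CPM of non-hemoglobin UMIs. Each point is a gene and dashed lines are the medians of all genes, -1.89 in WT and -2.60 in DKO: mt- genes lie near 0, most nuclear genes near the lines, and Atp5l lies highest.

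Isoform pairs shifted along the stages too. Among c-subunit UMIs Atp5g1 went from 45.2% in the first stage to 23.6% at 40 to 75% in WT and from 44.6% to 18.7% in DKO. Atp5g3 went from 25.1% to 58.5% in WT and from 27.7% to 66.4% in DKO over the same stages, and then to 25.9% and 35.2% in the last stage, on 162 and 128 UMIs of all 3 genes. There Atp5g2 had the largest share (43.2% in WT and 36.7% in DKO). At 75 to 90% Atp5g2 led in WT (40.7%, Atp5g3 31.7%) and Atp5g3 in DKO (40.4%, Atp5g2 31.2%). Cox6b2 took a larger share of Cox6b UMIs in the last 2 stages than in the others. The shares were 23.7, 16.2, 16.3, 35.8 and 36.4% in WT and 23.4, 24.5, 24.1, 49.6 and 66.0% in DKO. In the last stage this rested on 43 UMIs beside 75 of Cox6b1 in WT (27.8 to 45.8%) and on 264 beside 136 in DKO (61.1 to 70.6%), counting intervals that do not overlap, with Cox6b2 levels of 69.7 and 168 CPM.

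Of the mt- genes, mt-Co1 went from 2331 to 2985 CPM in WT (0.36) and from 3132 to 4455 in DKO (0.51), while mt-Nd1 (-0.37 and -0.67), mt-Nd4 (-0.36 and -0.48) and mt-Cytb (-0.30 and -0.50) ended lower. Each of the 10 mt- genes compared had its lowest level at 40 to 75% hemoglobin in both libraries. mt-Cytb, for example, was at 2831, 1417, 994, 2065 and 2299 CPM in WT and at 2573, 1136, 605, 1560 and 1822 in DKO.

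Other mitochondrial genes gave context, from lists chosen with earlier results of these data known. Of the 78 genes of the mitochondrial ribosome, which translates the 13 mt- messages, 15 could be compared between the first and last stage, and 14 were lower by 2-fold or more in each library, where 67.1% and 67.9% of all genes were (median -2.82 and -3.69). All 8 comparable genes of the protein import machinery (27 Tomm and Timm genes) were lower by 2-fold or more (-2.44 and -3.83). Of the tricarboxylic acid cycle 2 of 13 genes could be compared (medians -1.87 in both libraries), of the electron carrier list 1 of 11 (-2.79 and -2.88), and of 37 further assembly factors 1 (-0.86 and -1.14). Of the 18 genes of mitochondrial DNA expression 0 reached the minimum. The 4 comparable of 8 mitophagy genes, a list that includes Bnip3l, a receptor for removal of mitochondria from reticulocytes, went the other way, all higher by 2-fold or more, where 16.4% and 17.9% of all genes were (5.01 and 5.32). Together the 8 genes held 650 CPM in the first and 22307 CPM in the last WT stage, and 533 and 21872 in DKO. A gene could reach the minimum, a mean over both stages, through the stage where it was high. The counts of lower and of higher genes in these lists are therefore partly set by the minimum. Of the cytosolic ribosomal protein genes 74 of 76 in WT and 75 in DKO were lower by 2-fold or more (-2.38 and -3.21).

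Between the libraries the nuclear members were lower in DKO than the typical gene in every class, by a small amount. Taking genes of at least 20 CPM (mean of both libraries, all UMIs), the median log2 ratio of DKO over WT in early erythroid-like cells was -0.26 over 83 nuclear members and -0.01 over all 4744 genes. In late erythroid-like cells it was -0.31 over 28 nuclear members and -0.11 over 873 genes. The nuclear median lay under that of all genes in 12 of 12 classes, by 0.04 in stromal-like to 0.41 in neutrophil-like cells. Of 79 nuclear members that could be compared in at least 10 classes, 72 had a median below that of all genes, 18 were below it in every class where they could be compared, and 0 were above it in every class. The same counts were not made over all genes, and the classes came from the same pair of libraries. The counts are therefore not read as a trait of the members. The 18 included Ndufs7 and Ndufs8 of the complex I core, Sdhb of complex II, Cox5a and Cox7a2l of complex IV and Atp5g1 of complex V.

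The nuclear members are shorter than most genes, and short genes moved the same way. Their median span is 7.33 kb against 12.3 kb over all genes, and 68.1% against 45.1% span under 10 kb. Other genes under 10 kb had a median of -0.25 in early and -0.54 in late erythroid-like cells, and the nuclear members lay above that median in 7 of 12 classes and below it in 5. The 74 ribosomal protein genes of late erythroid-like cells were at -0.89. Whether gene span had a part in the nuclear difference was not tested.

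At the 20 CPM minimum single members passed a 1.5-fold limit rarely. In early erythroid-like cells 0 of 83 nuclear members were lower and 0 higher by 1.5-fold or more, against 2.99% and 0.780% of all genes. Of the 28 compared in late erythroid-like cells 0 were lower, where 19.0% of all genes were, and 0 higher, where 1.49% were. The 0 rested on that minimum: at 5 CPM 14 of 63 were lower, where 24.98% of all genes were, and it was 2 with doublets kept or with members among the clustering genes. The classes with 4 or more nuclear members past the limit in a direction were macrophage-like, megakaryocyte-like, T or NK cell-like and stromal-like: 4 of 81 were lower in macrophage-like cells (5.57% of all genes), 4 of 80 in megakaryocyte-like cells (11.5%) and 4 of 82 in T or NK cell-like cells (4.59%), and 15 of 83 were higher in stromal-like cells (28.8%). In early erythroid-like cells the lowest ratios were those of Ndufs8, a complex I core subunit (84.3 to 56.8 CPM, -0.57), Atp5g2 (298 to 202 CPM, -0.56), the iron-sulfur subunit Sdhb of complex II (91.9 to 63.1 CPM, -0.54), Ndufa8 (133 to 93.2 CPM, -0.52) and Ndufs4 (88.6 to 63.3 CPM, -0.48). The highest were Atp5k (143 to 168 CPM, 0.23), Atp5mpl (194 to 224 CPM, 0.21), Uqcr11 (292 to 330 CPM, 0.17), the assembly factor Ndufaf4 (0.11) and Ndufb1-ps (0.09). Atp5k, Atp5mpl and Uqcr11 are small subunits, and Ndufb1-ps is annotated as a non-coding RNA.

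In late erythroid-like cells the accessory complex I subunits Ndufa6 (25.6 to 18.1 CPM, -0.50) and Ndufa7 (34.6 to 24.5 CPM, -0.50) and the ATP synthase subunit Atp5a1 (28.1 to 19.99 CPM, -0.49) were lowest, with Cox6b1 (-0.43) and Uqcrb (-0.41). Uqcr11 (19.8 to 21.5 CPM, 0.12), Cox6c (72.3 to 77.0 CPM, 0.09), Atp5mpl (0.0015), Cox6a1 (-0.05) and Cox7b (-0.08) were highest. Uqcr11 and Atp5mpl were thus among the 5 highest in both erythroid classes. Summed by complex, the late erythroid-like ratio was -0.85 (-1.04 to -0.66) for complex II, -0.50 (-0.62 to -0.38) for the core of complex I, -0.35 for its supernumerary subunits, -0.30 for complex V, -0.23 for complex III and -0.23 for complex IV, where complex II rested on 17.7 and 9.82 CPM.

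The mt- sum differed in sign between classes. It was lower in DKO in late erythroid-like cells, at -0.26 (-0.27 to -0.25), in early erythroid-like cells, at -0.12 (-0.13 to -0.11), and in basophil or mast-like, megakaryocyte-like and neutrophil-like cells, at -0.05, -0.08 and -0.04. It was higher in the other 7 classes, most in stromal-like (0.32) and cKit+ progenitor-like cells (0.19). In late erythroid-like cells hemoglobin took 82.8% of WT and 85.2% of DKO UMIs. On CPM of non-hemoglobin UMIs the late difference was -0.04 for the mt- sum and -0.09 for the nuclear median, where the median of all genes was 0.10. Between late erythroid-like cells matched on the hemoglobin share in 5-point bins (3635 cells per library), the mt- sum was at -0.03, the nuclear median at -0.04 and all genes at 0.07. The early mt- difference was 0.06, and so of the other sign, when cells over the limit on the mt- share were kept.

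**Figure D5:**
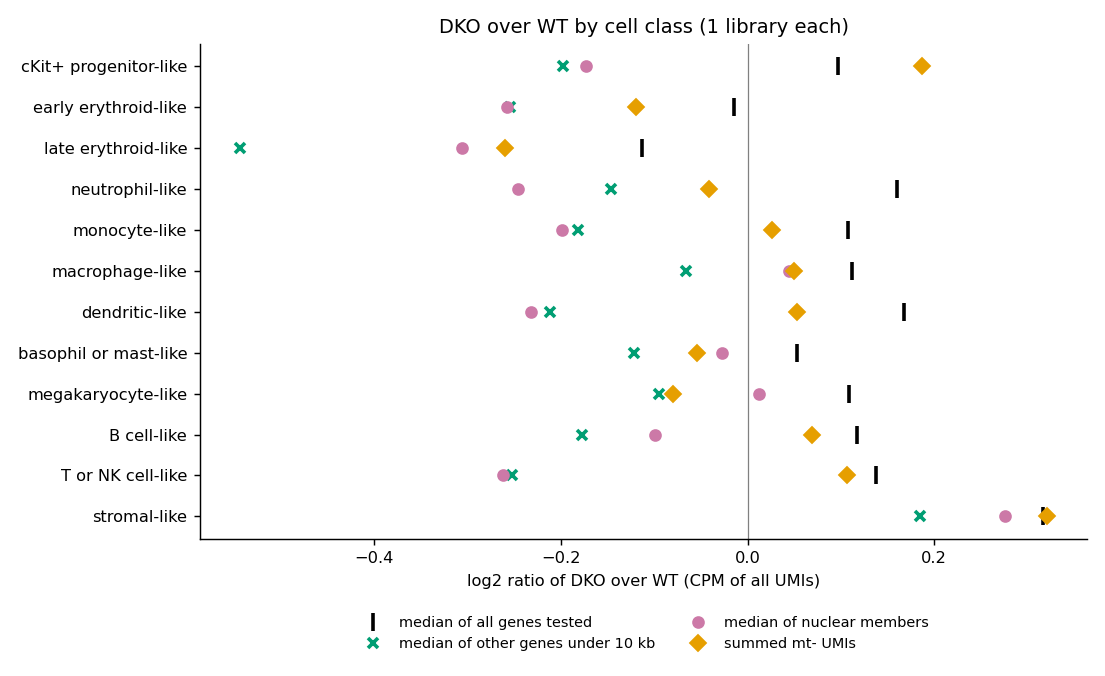
Log2 ratio of DKO over WT by class, from CPM of all UMIs: median of all genes of at least 20 CPM, median of other genes spanning under 10 kb, median of the nuclear members, and the mt- sum. Points of the nuclear members lie left of those of all genes in all 12 classes, by 0.04 to 0.41, and the mt- sum lies on either side of 0.

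Within the hemoglobin stages the nuclear medians were close to 0: -0.11, -0.02, -0.02, 0.17 and 0.06 from the first to the last stage, over 86, 80, 62, 21 and 12 members, beside 0.10, 0.03, 0.12, 0.30 and -0.23 over all genes. The nuclear members compared thus lay under the median of all genes in the first 4 stages and above it in the last. In the last stage these were only the 12 members that reached 20 CPM, so the median describes the members that were high there. Over all nuclear members, the summed share of all UMIs in the last stage was 0.0906% in WT and 0.0826% in DKO. The mt- sums were 0.15, -0.01, -0.20, -0.02 and -0.17. The lower nuclear and mt- levels of the DKO late erythroid-like class were therefore not seen within every stage, and the DKO class held more cells of the last stage (2619 of 4859, against 1403 of 6194 in WT).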

How the data were processed

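Femoral marrow of 1 WT and 1 DKO mouse was profiled with the 10x Genomics 3′ v3 kit. The authors deposited raw UMI counts per gene and barcode, made with Cell Ranger (7.1.0 per the file headers) on mm10 (per the labels). Whether intronic reads were counted is not given in the sources used here, and it could change values of long genes. The WT matrix listed 1518290 barcodes and the DKO matrix only 14142, each of at least 500 UMIs, so WT cells were called first: barcodes whose UMIs, times 10, were above percentile 99 of the 3000 deepest (the order-of-magnitude threshold), and others of at least 500 UMIs that differed from the RNA of barcodes of 1 to 100 UMIs (10000 Monte Carlo draws, 1% false discovery rate), 19205 in all. Barcodes over 20% mt- UMIs were left out, then 384 WT and 224 DKO doublets by Scrublet score. Free RNA could be measured in WT alone.

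Cells were clustered with scanpy 1.11.5 and leidenalg 0.10.2 (2000 variable genes without the members, Ddx41 and Cgas; 30 components; 15 neighbours; resolution 1.0) under Python 3.11.15, and clusters were named from marker lists. Plasma cell-like and unnamed clusters were not compared. Counts were summed per class and library and scaled to CPM. Differences are log2 of DKO over WT with 1 count added, with exact conditional binomial intervals; shares have Clopper-Pearson and levels exact Poisson intervals. All cover counting error only, at 95%. Genes of at least 20 CPM were compared between libraries and of at least 100 CPM between stages. The calling of cells, and the log2 ratios with their intervals in late erythroid-like sums, were tested on simulated data. The clustering, the naming, the stages and the other intervals were not.

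The members and lists were chosen with earlier results of these data known. Genes were named by rule: all mt- genes, the 2 members with most UMIs per nuclear group, the 5 lowest and 5 highest ratios in both erythroid-like classes, complex II and the isoform list, in which Atp5if1 was not found under that symbol. Exceptions are marked. The alternatives concerned scaling, mt- limit, doublets, cell calling, resolution, variable genes, CPM minimum, matching on hemoglobin, stage limits, shared barcodes, low-UMI clusters and free RNA. Gene positions were from GENCODE M21 (GRCm38).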

Additional observations from a re-analysis of the deposited data

Results flagged for a closer look

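RNA outside the called cells carried mt- genes: they gave 4.62% of the UMIs of WT barcodes of 1 to 100 UMIs and served above to call WT cells and to set an upper limit on free RNA. The DKO matrix held no such barcodes.

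Of the called barcodes 0.896% in WT (172) and 1.52% in DKO (215) were over the 20% limit on mt- UMIs and were left out, except where values with these cells kept are given. Their median depth was 992.5 and 897 UMIs, against 4922 and 6954 in the other called barcodes. Their median mt- share was 35.7% in WT and 65.0% in DKO, and 121 and 152 of them lay in erythroid-like clusters when they were clustered together with the other cells.

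The summed mt- log2 ratio of DKO over WT had opposite signs in different classes: 0.19 in cKit+ progenitor-like, 0.11 in T or NK cell-like and 0.32 in stromal-like cells, and -0.12 in early and -0.26 in late erythroid-like cells. With 1 library of each genotype the difference between classes was not tested.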

How the results depend on the processing

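Of 73 values under alternative settings 42 stayed within their limits, 30 moved beyond them without a change of sign and 1 changed sign. The causes were not tested. The limits were the counting interval for mt- sums and stage changes, and 1.5 times for the number of genes. For nuclear medians they were as wide as the median single-gene counting interval, -0.42 to -0.19 late and -0.33 to -0.18 early. These wide limits are no counting interval of the median. The values below are in the order late and early mt- sum, late and early nuclear median (log2 of DKO over WT), number of nuclear members 1.5-fold lower in late erythroid-like cells, and change in nuclear per mt- UMIs from the first to the last stage in WT and DKO, which were -0.26, -0.12, -0.31, -0.26, 0, -1.46 and -1.20. Scaling without hemoglobin gave -0.044, -0.032, -0.090 and -0.17. Without the limit on mt- UMIs the mt- sums were -0.29 late and 0.059 early, the sign change, and the stage changes -0.84 and -0.40. A limit of 10% gave mt- sums of -0.36 and -0.087 and stage changes of -1.58 and -1.25. With doublets kept the mt- sums were -0.28 and -0.13 and the number 2. With only barcodes above the order-of-magnitude threshold the mt- sums were -0.14 and -0.10 and the stage changes -1.28 and -1.26. With members among the variable genes the late mt- sum was -0.31 and the number 2. A minimum of 5 CPM raised the number to 14 of 63, where 24.98% of all genes were lower, and a minimum of 100 CPM left 2 nuclear members, with a median of -0.17. Matching on hemoglobin gave -0.032 for the late mt- sum and -0.043 for the late nuclear median. Stage limits of 10 and 85% gave -1.37 and -1.23. Chosen after seeing the data were the removal of low-UMI clusters (early mt- sum -0.18, stage changes -0.94 and -0.79), of free RNA (WT stage change -1.14) and of shared barcodes, which moved none of the 7 values beyond its limits. Leiden resolution 0.5 moved none either. The late nuclear median lay under that of all genes by 0.02 to 0.22 and the early one by 0.17 to 0.26 over these settings. No paired analysis was possible because each genotype had 1 library. With 1 mouse per genotype depth limits little of the large sums, and single nuclear members in late erythroid-like cells rested on few UMIs.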
